A study of Mus musculus with 5 samples.

Results

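Induced hepatic progenitor cells made from a neural progenitor line with 9 transcription factors (titled iHep-9F, written iHPC-9F below) were compared with cells made from the same line with 10 factors (titled iHep-10F, written iHPC-10F). These were 2 of the 5 arrays of the series, 1 culture on 1 array each, and every value below comes from probes that were not controls and were well above background on at least 1 of the 2 arrays. That held for 26181 of 41172 probes with a level on both arrays, and these represented 17548 genes. Both cultures came from NSBAg2, a neural progenitor line made from the embryonic stem cell line BAg73C2, in which a beta-geo cassette (a fusion of a reporter enzyme and a G418 resistance enzyme) is knocked into Afp. The factors were delivered with pMXs retroviral vectors that carry no drug marker, G418 was added 3 weeks after infection, and the cells were harvested after 1 week in it. Both cultures were thus selected for transcription from Afp. The names of the factors, and which factor the iHPC-10F cells received in addition, are not given in the sources used here. The untransduced NSBAg2 line (NPC, 1 array) was used as reference, and 2 lines of hepatic progenitor cells (HPC) from mouse fetal liver at E13.5 gave a scale of comparison: HB1 of strain C57BL6J (replicate 1) and HNG2 of STOCK Tg(Nanog-GFP, Puro)1 Yam (replicate 2).

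Hepatic progenitors of the fetal liver, also called hepatoblasts, give rise to hepatocytes and to the epithelium of the bile ducts. They make plasma proteins such as alpha-fetoprotein and albumin under the control of a small network of transcription factors that includes HNF4 and the FOXA proteins, and they carry the keratins of simple epithelia. Forced expression of such factors can move a cell of another lineage towards this state, and cultures made in this way can keep genes of the lineage they came from.

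A level is the log2 of the processed signal relative to the 75th percentile of its array, and a difference is the iHPC-10F level minus the iHPC-9F level on the log2 scale. With 1 array in each group no difference has a replicate check and no test was made. The errors available are the spread between repeated spots of a probe and between separate probes of a gene, and these cover the measurement, not the culture. The iHPC-9F array lay on a slide of its own among the 5 arrays, and iHPC-10F and NPC shared another. All 3 were scanned on 1 day. The slide and the number of factors therefore cannot be told apart. On iHPC-9F 63.0% of the spots were well above background, on iHPC-10F 58.9% and on NPC 62.0%, and no spot was saturated.

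Some markers of the labelled state were high in both cultures, while other genes of that state lay below the HPC lines. Afp was at 6.40 in iHPC-9F and 6.82 in iHPC-10F, but both cultures had been selected for its transcription. The keratin genes Krt8, Krt18 and Krt19 were at 5.48, 7.03 and 6.04 in iHPC-9F and at 5.23, 6.81 and 6.06 in iHPC-10F. Foxa2 was at 0.07 in iHPC-9F and -0.36 in iHPC-10F, against 4.92 and 4.56 in the HPC lines and 2.99 in NPC. Gata6 was at -3.45 and -3.78, against 3.49 and 2.21 in the HPC lines. Neural genes were still measured in both induced cultures. Zic1, a zinc finger factor of the neural tube, was at 1.75 and 1.71, and Sox2, a factor of neural stem cells, at -3.57 and -4.41, against 0.87 for Sox2 on the NPC array. Zic1 and Sox2 were not well above background in either HPC line. Of 31 neural progenitor markers 18 were measured and 0 were 2-fold apart, and 13 of the 18 were also well above background in both HPC lines. Their median difference was -0.04. The log2 of their summed signal was 9.44 in iHPC-9F, 9.24 in iHPC-10F and 9.48 in NPC. Such a sum is carried by the brightest members and does not show that each marker kept its level. Pax6 was at -3.05 in iHPC-9F, -2.84 in iHPC-10F and -0.98 in NPC, and Nes at 2.66, 2.87 and 1.19. In bulk RNA, fewer cells of a type and less RNA in each cell cannot be told apart.

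The induced cultures were close to each other. Over the 15964 genes well above background on both arrays, the median absolute difference was 0.13, the SD 0.33, and 92.0% of genes lay within 0.5 of each other. The HPC lines differed with an SD of 1.02 over 16522 genes. They are separate lines of different strains, on separate slides scanned on separate days. The induced cultures came from the same line and were scanned on the same day, so the pairs are not alike in design. Among all 17548 genes, 276 (1.57%) were at least 2-fold higher in iHPC-10F and 278 (1.58%) at least 2-fold higher in iHPC-9F, together 3.16%, whereas 28.1% of 19111 genes were 2-fold apart between the HPC lines. At 4-fold the counts were 79 (0.45%) and 41 (0.234%). A gene seen on only 1 of the arrays (1334 on iHPC-9F, 250 on iHPC-10F) enters with a lower bound: the missing level is taken as the lowest one well above background on the other array, or as the probe's own signal there if that is higher. Without such genes the counts were 119 and 180, and with normexp background correction 58 and 76.

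**Figure D1:**
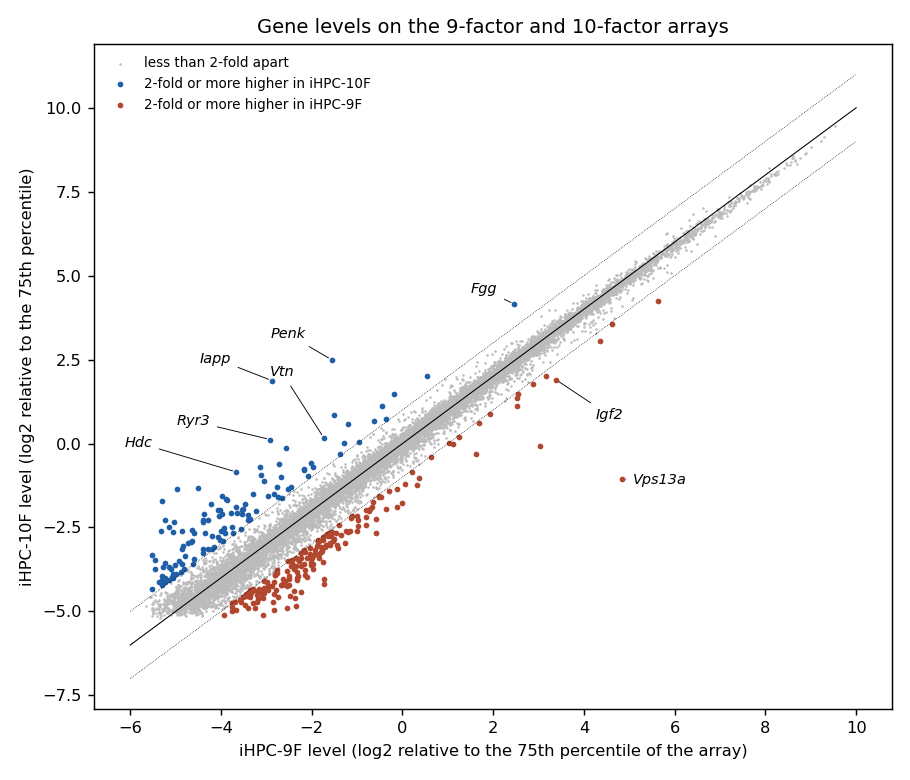
Level of each gene well above background on both arrays in iHPC-9F (x axis) and iHPC-10F (y axis), as log2 relative to the 75th percentile of the array. The solid line marks equal levels and the dotted lines a 2-fold difference; genes past it are coloured, most of them lie at the dim end, and Penk, Iapp and Vps13a lie farthest out.

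Most of the genes that differed were dim. Of the 276 genes higher in iHPC-10F, 250 had a mean level under -2, as did 229 of the 278 higher in iHPC-9F, against 35.1% of all genes. The spread of the difference fell with level, from an SD of 0.50 between -4 and -2 to 0.17 above 2. Among the 4180 genes with a mean level above 2, Fgg was higher in iHPC-10F and 7 genes were higher in iHPC-9F. With mean levels above 0, the genes higher in iHPC-10F were Penk, Fgg, Iigp1, Pla2g7, Amph, Meg3 and Mpzl2. Those higher in iHPC-9F numbered 18 and included Igf2, Rusc1, Prl2c3, Cdh16, Grin2d, Sts and Ptgds.

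The gene that stood farthest apart with more than 1 probe in agreement was Penk, which encodes the precursor of the enkephalin opioid peptides. Its brightest probe was at -1.56 in iHPC-9F, 2.49 in iHPC-10F and 4.06 in NPC, and at -4.77 and -1.01 in HPC replicates 1 and 2. The second probe read -4.65, -0.77 and 1.05 in iHPC-9F, iHPC-10F and NPC. The differences at the probes were 4.05 and 3.88, a 16.6-fold higher level in iHPC-10F at the brighter probe. Penk was thus high on the parental array and low on the iHPC-9F array, with iHPC-10F between them.

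Some other genes higher in iHPC-10F at more than 1 probe were also higher still in the parental line. Nrp1, a receptor for semaphorins and vascular endothelial growth factor, was at -3.05 in iHPC-9F, -1.12 in iHPC-10F and -0.70 in NPC, with differences of 1.93 and 1.49 at its probes. Meg3, a maternally expressed long noncoding RNA of the imprinted region that also holds Dlk1, was at -0.63, 0.66 and 2.68, with differences of 1.28 and 1.33, and Dlk1 itself differed by 0.49. Cttnbp2, which encodes a cortactin-binding protein of dendritic spines, was at -3.53, -2.10 and -0.27. Slit3, an axon guidance ligand, was at -4.93, -4.05 and 2.88. With normexp background correction the differences were 1.23 for Nrp1, 0.78 for Cttnbp2 and 0.11 for Slit3. In 56 of the 276 genes higher in iHPC-10F, NPC was well above background and higher than either induced culture. That is 20.3%, below the 39.1% of all genes for which this held, so these genes are examples and not a mark of the set. They also included Kif26b (-4.40, -2.29 and 1.58), Rnf150 (-3.66, -2.07 and 1.91) and Pla2g7, a lipoprotein-associated phospholipase (-0.46, 1.13 and 2.57). Of the 278 genes higher in iHPC-9F, 18 had NPC well above background and above both induced cultures, such as Mef2c (-3.47, -4.79 and 1.55). Lpar1, higher in iHPC-9F by less than 2-fold, was also highest in NPC (-1.42, -2.25 and 1.57).

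A second set was high in iHPC-10F and low in NPC and HPC. Iapp, which encodes the pancreatic beta-cell peptide amylin, was at -2.88 in iHPC-9F, 1.87 in iHPC-10F and -3.88 in NPC, and at -5.27 and -5.75 in the HPC lines, and its difference of 4.75 rests on 1 probe. Gtsf1, a factor of the piRNA pathway in germ cells, was at -2.17 and -0.79 in iHPC-9F and iHPC-10F and not well above background in NPC, with differences of 1.38 and 1.39 at its probes. Ltf, the iron-binding protein lactoferrin, was at -1.97 and -0.71 (differences 1.25 and 1.40), and Hdc, the enzyme that makes histamine, at -3.67 and -0.85 with 1 probe. With normexp the differences were 3.90 for Iapp and 1.74 for Hdc. Xist, the RNA of the inactive X chromosome, was at -2.02 and -0.57, with differences of 1.44 and 0.95 and no signal well above background in NPC or HPC at those probes. The Y-linked genes Eif2s3y (0.47 and 0.05) and Ddx3y (-0.11 and -0.32) were measured in both cultures. In 104 of the 276 genes (37.7%) neither NPC nor either HPC line was well above background. The same held for 49 of the 278 genes higher in iHPC-9F (17.6%) and for 565 of all 17548 genes (3.22%). A gene measured on 1 induced array alone passed the filter through that array, so these shares are a description of these arrays.

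Bounds gave the largest differences among genes seen on iHPC-10F alone. A2m, the plasma protease inhibitor alpha-2-macroglobulin, was at -0.48 in iHPC-10F and not well above background on the other 4 arrays, at least 36.5-fold higher than in iHPC-9F, but its second probe was not well above background on either array. Mug1, a murinoglobulin and a relative of A2m, was at -1.47, at least 18.4-fold higher. Mug2 was at least 2.72-fold higher, and as these genes form a family of similar sequence on chromosome 6, their probes may not separate them. Slc2a10, a glucose transporter, was at -1.98 in iHPC-10F and -1.12 in NPC and not well above background in iHPC-9F. Adgrf5 and the potassium channel gene Kcnc1 were at -2.05 and -2.06 in iHPC-10F alone, and the other 2 probes of Kcnc1 were not well above background on either array. The bounds depend on how background is treated: with normexp the differences were 2.68 for A2m, 1.96 for Mug1, 1.68 for Slc2a10, 1.76 for Adgrf5 and 1.48 for Kcnc1.

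**Figure D2:**
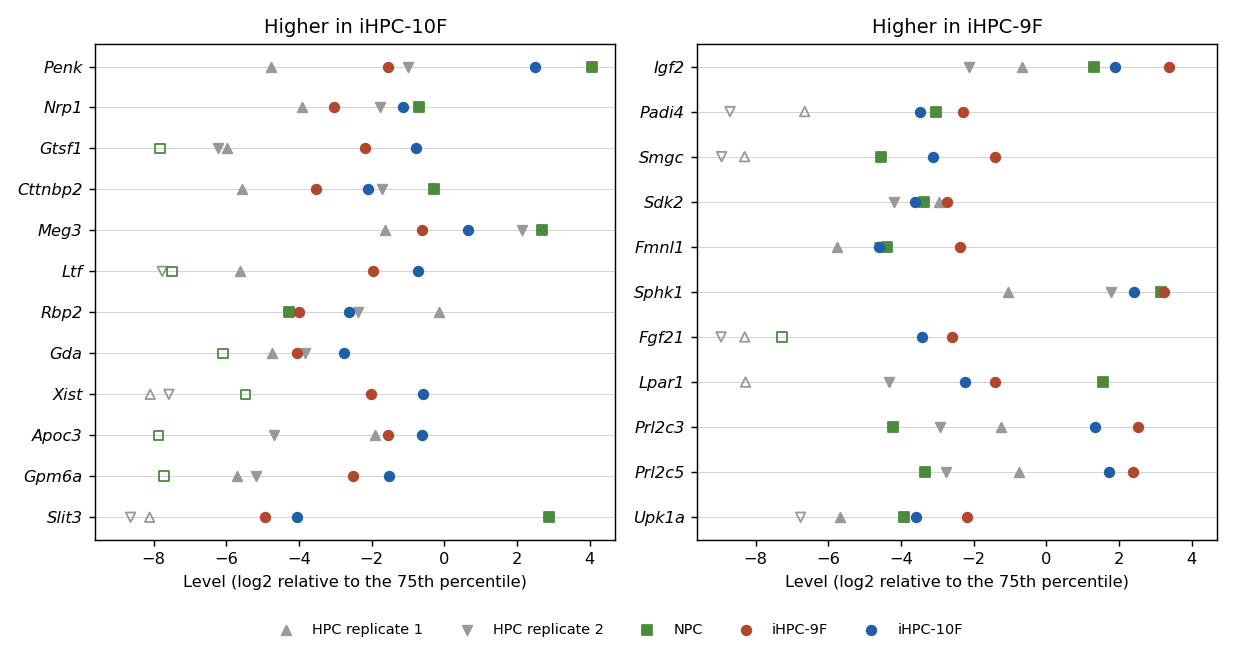
Levels on all 5 arrays (x axis, log2 relative to the 75th percentile) of 12 genes higher in iHPC-10F and 11 higher in iHPC-9F, taken from those that differed most with at least 2 probes of the same sign. Points are the brightest probe, and open symbols are not well above background. Penk, Nrp1, Cttnbp2, Meg3 and Slit3, and Lpar1 among those higher in iHPC-9F, are highest in NPC.

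Among genes higher in iHPC-9F at 2 probes, each at least 2-fold apart, was Igf2, the fetal growth factor IGF-II. Its probes read 3.38 and 1.44 in iHPC-9F, 1.90 and -0.18 in iHPC-10F and 1.32 and -0.84 in NPC, so that the differences were -1.48 and -1.62. The brighter Igf2 probe is printed at many spots, 8 of which were read on iHPC-9F and 10 on iHPC-10F, and the SE of the difference over spots was 0.016. H19, the noncoding RNA that shares its imprinting control with Igf2, differed by -0.37. Gpc3, an oncofetal proteoglycan of hepatoblasts and liver tumours, was at 0.36 and -1.01, a difference of -1.37 at 1 probe. Of 21 measured hepatoblast markers 2, Igf2 and Gpc3, were at least 2-fold higher in iHPC-9F (1.58% of all genes were) and 0 in iHPC-10F (1.57%). The median difference of the list was -0.09, with Krt8, Krt18 and Krt19 at -0.25, -0.22 and 0.02.

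Prl2c3 and Prl2c5, prolactin-family hormones also known as proliferins, were at 2.52 and 2.40 in iHPC-9F and 1.34 and 1.72 in iHPC-10F, with every measured probe of either gene lower in iHPC-10F. They are close copies, and their probes may not separate them. Sphk1, a sphingosine kinase, was at 3.25 and 2.42 (differences -0.83 and -0.81), and Fgf21, a metabolic hormone of the liver, at -2.60 and -3.41 (differences -0.80 and -0.83). Cdh16, a cadherin of the kidney, was at 3.17 and 2.01 and not well above background in NPC. Aqp1, a water channel of bile duct epithelium, was at -0.01 and -1.76 with 1 probe.

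The gene with the largest difference of all, Vps13a, rested on 1 of its probes. That probe was at 4.85 in iHPC-9F and -1.05 in iHPC-10F (difference -5.90), with -1.32 in NPC and -0.04 and -0.77 in the HPC lines. The other 3 measured probes of Vps13a differed by -0.26, -0.05 and 0.05. The difference at the brightest probe was thus not seen at the others. Ryr3, a calcium release channel, also disagreed with itself: 2 probes were higher in iHPC-10F by 3.03 and 2.52, and another by 0.36. A further probe was well above background on iHPC-9F alone, at -3.18, and another on iHPC-10F alone, at -4.87. Tmco5b, the neighbour of Ryr3, was higher in iHPC-10F by 2.97, or by 1.07 with normexp. Rusc1 (5.63 and 4.25) differed by -1.37 at its brightest probe and by 0.20 at its second.

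Separate probes of a gene gave a check on single differences, beside the repeated spots of some probes. In 5538 genes with at least 2 probes well above background on both arrays, the median SD between probes was 0.11 and the second probe had the sign of the brightest in 62.0%. Where the brightest probe was at least 2-fold higher in iHPC-10F (20 genes), the second probe had the same sign in 16 and was itself past 2-fold in 10. Where it was at least 2-fold higher in iHPC-9F (24 genes), the second probe had the same sign in 15 and was past 2-fold in 4. The median difference of the second probes was 1.05 in the first set and -0.13 in the second. The exact 95% binomial intervals of the same-sign shares, 56.3% to 94.3% and 40.6% to 81.2%, overlapped, and they cover counting error only.

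**Figure D3:**
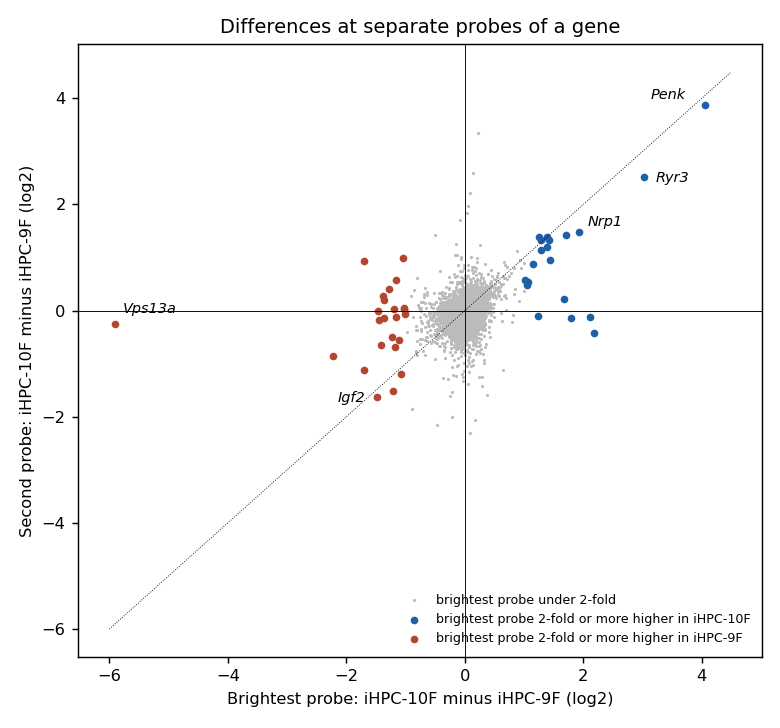
Difference between iHPC-10F and iHPC-9F (log2) at the brightest probe (x axis) and the second brightest probe (y axis) of the 5538 genes with at least 2 measured probes. The dotted line marks equal differences; Penk, Ryr3, Nrp1 and Igf2 lie near it, and Vps13a lies at -5.90 and -0.26.

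On 154 probes printed at many spots, with 6 to 10 spots read on an array, the median SE of the difference over spots was 0.025. Spots of the arrays did not overlap at 59 of these probes, and the probes of 5 genes were at least 2-fold apart. Polr2a, the largest subunit of RNA polymerase II, was at -0.12 in iHPC-9F and -1.88 in iHPC-10F (difference -1.76, SE 0.063), with -1.40 in NPC. Wt1, a factor of the coelomic lining and kidney, was at -2.76 and -3.86 (SE 0.037). Acta2, smooth muscle actin, was at -0.88 and 0.96 at this probe (difference 1.84, SE 0.026), while its brighter probe read 3.42 and 3.46. Olfr166 differed by -1.05 at this probe and by 1.00 the other way at its second probe. The fifth was Igf2, described above. Smaller differences that were also larger than the spread over spots were those of the cell cycle inhibitor gene Cdkn2a (-0.64), the cyclin gene Ccnd1 (-0.56), Hprt (0.65), Kdr (0.63), Cdh1 (0.36) and Apoe (0.33). Polr2a lies beside Tnfsf12 in the order of measured genes, and Tnfsf12 was also lower in iHPC-10F, at least 3.87-fold.

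**Figure D4:**
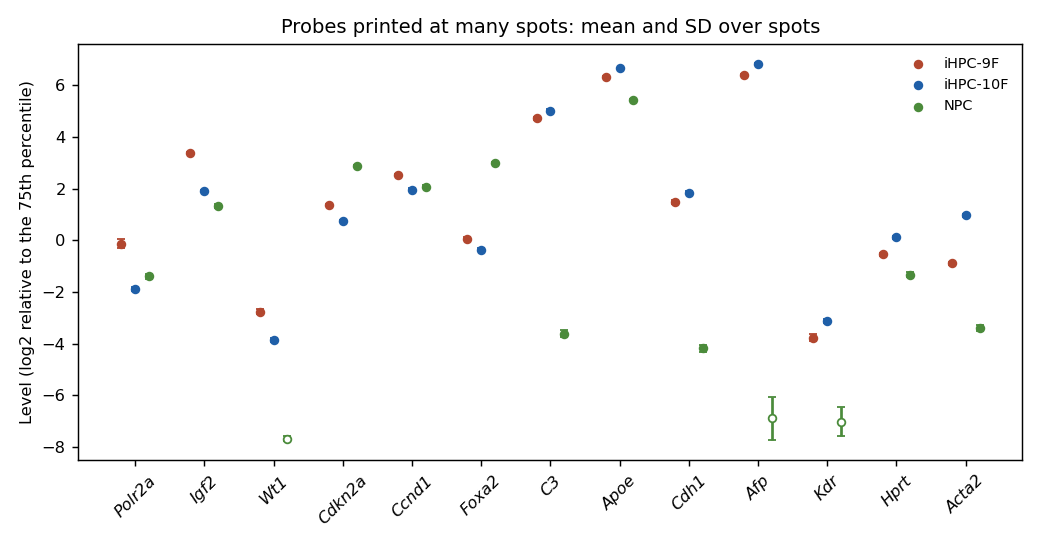
Mean level over repeated spots (y axis, log2 relative to the 75th percentile) with the SD over spots for 13 genes on the iHPC-9F, iHPC-10F and NPC arrays; open symbols lie below the lowest level well above background on that array. Igf2 lies at 3.38, 1.90 and 1.32, and Afp at 6.40 and 6.82 in the induced cultures.

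Plasma protein genes of 5 pooled lists lay mostly above 0, by small amounts. Of 74 measured genes of the albumin family, apolipoproteins, clotting, complement and carrier proteins, 54 were above 0 (73.0%, against 45.7% of all genes), with a median difference of 0.27 against -0.0075 for all genes. Past 2-fold, 4 (5.41%) were higher in iHPC-10F (1.57% of all genes were) and 0 in iHPC-9F (1.58% of all genes were). By at least 0.5, a limit chosen after the values were seen, 17 of the 74 were higher (4.13% of all genes were) and 3 were lower (6.13% of all genes were). The acute phase list was counted on its own and shares Hp with the carrier list. It lay evenly around 0: of 17 measured genes 8 were above and 8 below 0, the median was 0, and 0 were past 2-fold. The medians of the 5 lists ran from 0.17 for complement to 0.39 for the fetuins and carriers, with the apolipoproteins at 0.23, clotting at 0.26 and the albumin family at 0.36. Under the 9 other ways of processing they stayed above 0, at 0.07 to 0.45.

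The 4 genes past 2-fold were Vtn, Fgg, Azgp1 and Apoa4. Vtn, the cell-adhesive plasma protein vitronectin, was at -1.74 in iHPC-9F and 0.17 in iHPC-10F (3.75-fold higher), and at -2.28 and -2.45 in the HPC lines. Fgg, the gamma chain of fibrinogen, was at 2.46 and 4.15 (3.22-fold). The other fibrinogen chains differed less: Fga was at 1.59 and 2.10, and Fgb at 8.07 and 8.22. Azgp1, a fat-mobilising glycoprotein, was at -2.17 and -0.75, and Apoa4 at -3.41 and -2.29. Each of the 4 has 1 measured probe. Apoc3 showed differences of 0.93 and 0.95 at 2 probes.

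Alb was at 3.23 and 3.99 (difference 0.75), inside the range of the HPC lines (4.61 and 1.84), and Afp differed by 0.42. Gc, the vitamin D carrier, was at 4.74 in both, and Ahsg, a fetuin, at 6.25 and 6.34. Larger differences under 2-fold were those of Ambp (0.83), the hemopexin gene Hpx (0.76), F10 (0.76) and the prothrombin gene F2 (0.59). Those lower in iHPC-10F by at least 0.5 included F7 (-0.85) and Apoc4 (-0.68).

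Promoters of these genes are shown because most plasma protein genes lay on 1 side of 0. RefSeq sequences of build GRCm38.p6 held a promoter for 55 of the 74 genes, and the 250 bases before the first listed start were searched on both strands for GTTAAT, letters of an element known from promoters of liver genes, for TATAAA, and for AAAGTCCA, a form of the HNF4 element. GTTAAT occurred in 18 of the 55 (32.7%), against 4.59% of 11278 measured genes with a promoter and 6.52% of all 27025 promoters. TATAAA occurred in 8 of the 55 and in 3504 of all promoters, and AAAGTCCA in 0 of the 55 and 1.02% of all promoters. GTTAAT was found before Alb, Afp and Vtn, and not in the window before Fgg, Azgp1 or Apoa4. The lists were chosen for liver expression, so this describes the genes and not their difference between the cultures: among genes at least 2-fold higher in iHPC-10F, 18 of 173 held GTTAAT, and among those higher in iHPC-9F, 11 of 126. The sequences below run 5′ to 3′ on the strand of the gene, with the matches in capitals; in Vtn the matches of TATAAA on both strands overlap. Alb is at chr5:90460620-90460869 (+), Afp at chr5:90490464-90490713 (+), Vtn at chr11:78498870-78499119 (+) and Iapp, the gene with the largest measured difference in this direction, at chr6:142298175-142298424 (+).
Alb: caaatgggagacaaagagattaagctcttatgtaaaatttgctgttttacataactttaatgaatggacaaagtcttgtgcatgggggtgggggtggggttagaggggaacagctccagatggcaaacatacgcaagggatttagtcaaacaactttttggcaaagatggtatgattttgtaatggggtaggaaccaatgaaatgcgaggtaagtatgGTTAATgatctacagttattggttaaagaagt
Afp: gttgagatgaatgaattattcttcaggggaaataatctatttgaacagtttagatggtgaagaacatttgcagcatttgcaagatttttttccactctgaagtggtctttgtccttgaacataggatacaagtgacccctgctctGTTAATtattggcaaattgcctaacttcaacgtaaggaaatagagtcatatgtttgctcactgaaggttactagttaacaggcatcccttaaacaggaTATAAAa
Vtn: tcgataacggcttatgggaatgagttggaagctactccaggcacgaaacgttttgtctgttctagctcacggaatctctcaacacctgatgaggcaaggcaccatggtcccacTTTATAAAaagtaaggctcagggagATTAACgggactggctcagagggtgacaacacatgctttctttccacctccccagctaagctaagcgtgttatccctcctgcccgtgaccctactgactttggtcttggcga
Iapp: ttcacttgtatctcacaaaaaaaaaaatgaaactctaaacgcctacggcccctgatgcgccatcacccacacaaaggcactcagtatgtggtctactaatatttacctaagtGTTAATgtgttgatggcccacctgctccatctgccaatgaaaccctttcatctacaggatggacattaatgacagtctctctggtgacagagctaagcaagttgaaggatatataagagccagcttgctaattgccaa

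The liver-enriched transcription factors lay on either side of 0. Of 30 on the array 25 were measured, with a median difference of -0.04. In iHPC-10F 0 were 2-fold higher (1.57% of all genes were) and 2 were 2-fold lower (1.58% of all genes were). Hnf4a was at 1.41 in iHPC-9F and 1.56 in iHPC-10F, Nr1h4, the bile acid receptor, at 2.27 and 2.18, and Cebpa at -0.54 and -0.61. Onecut1 was at -1.75 and -1.48, Onecut2 at 1.02 and 1.52, and Hhex at 0.79 and 1.21. Foxa2 was lower by 0.43 (0.07 and -0.36, SE over spots 0.019). Foxa1 and Foxa3 were not well above background in either induced culture, but were in both HPC lines. Nr5a2, a nuclear receptor of bile acid metabolism, was at -3.11 and -4.43, and Creb3l3, a membrane-bound factor of the liver, at -0.47 and -1.60. Prox1 was seen on iHPC-10F alone, at -4.83. The sources used here do not say whether these probes also detect transcripts of the retroviral vectors.

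**Figure D5:**
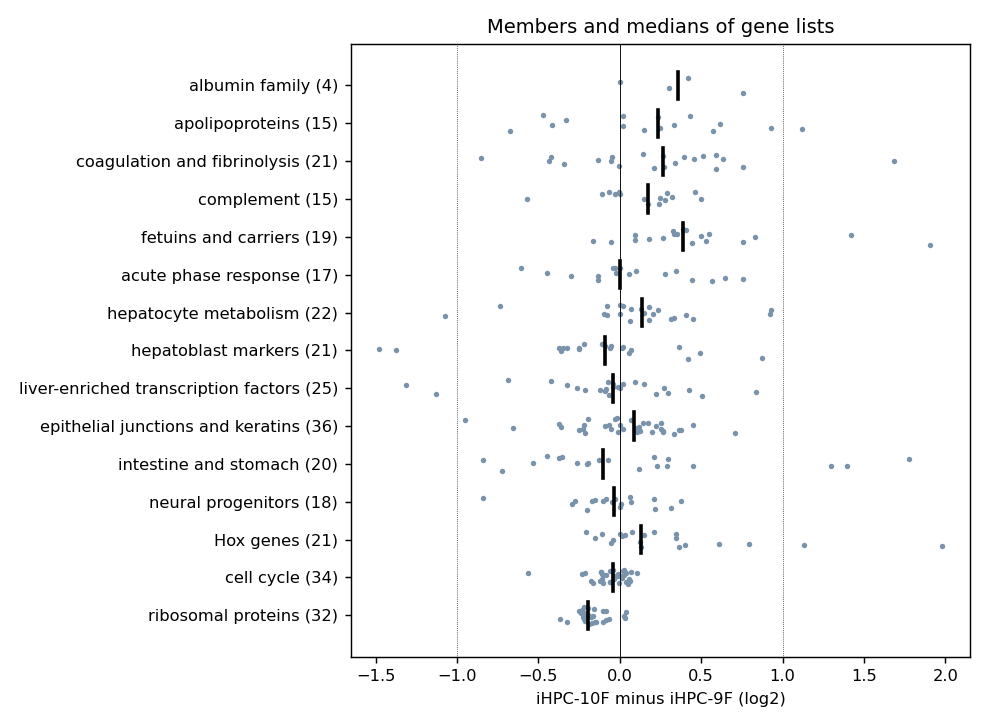
Difference between iHPC-10F and iHPC-9F (x axis, log2) of the measured members of 15 gene lists, with the number measured in parentheses. Points are genes, thick bars are list medians and dotted lines mark 2-fold; the 5 plasma protein lists have medians of 0.17 to 0.39, and ribosomal protein genes -0.19.

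Metabolic genes of hepatocytes had a median of 0.14, with 15 of 22 above 0 and 1 past 2-fold, lower in iHPC-10F (1.58% of all genes were). Cps1, the entry enzyme of the urea cycle, was at -0.72 and 0.20. In the fatty acid oxidation list 20 of 26 were above 0, with a median of 0.14. Fabp1, the fatty acid-binding protein of liver and intestine, was past 2-fold (-1.29 and 0.01). Cytochrome P450 genes (median -0.02, 16 measured) and conjugation enzymes (median -0.06, 29 measured) had 0 members past 2-fold.

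Among 20 measured intestinal and gastric markers, 3 were at least 2-fold higher in iHPC-10F (1.57% of all genes were) and 0 in iHPC-9F (1.58%), while the median of the list was -0.10. They were Fabp1, Isx, a homeobox factor of intestinal epithelium (-2.97 and -1.57), and Agr2, a protein disulfide isomerase of mucus-secreting cells (-1.20 and 0.58). Agr3, the neighbour of Agr2, was at least 3.58-fold higher. The defining factor Cdx2 was at -0.29 and -0.83, and Cdh17 at 0.08 and -0.12. The log2 of the summed signal of the list was 6.41 in iHPC-9F, 6.37 in iHPC-10F and 1.44 in NPC, and 15 of the 20 were well above background in both HPC lines.

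Hox genes set position along the body axis. Of 21 measured members Hoxb9 (-5.45 and -3.47) and Hoxb5 (-4.29 and -3.15) were past 2-fold in iHPC-10F. Both were dim, and among all genes 184 of 3056 below a level of -4 and 66 of 3111 between -4 and -2 were past 2-fold in this direction. The probes of Hoxb6 differed by 0.79 and -0.22. Genes of the A cluster with higher levels lay close together: Hoxa7 was at -0.64 and -0.61, and Hoxa10 and Hoxa11 differed by 0.13 and 0.12. Of 32 measured collagen and matrix genes 15 were above 0 and 17 below, with a median of -0.02. Past 2-fold were 2, both higher in iHPC-10F (1.57% of all genes were): Col6a3 (difference 1.16) and the tenascin gene Tnc (difference 1.16). Col8a1 was at 1.05 and 0.41. Of 19 measured mesenchymal markers 1, Pdgfra, was past 2-fold, by a bound of 2.01-fold, and the median was 0. The log2 of their summed signal was 3.73 in iHPC-9F, 3.62 in iHPC-10F and 8.31 in NPC.

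Signalling lists were read against the 3.16% of all genes past 2-fold in either direction. Of 32 measured Wnt pathway genes, Sfrp4, a secreted inhibitor, was higher in iHPC-10F (-2.72 and -0.61) and Wnt10a lower (-1.94 and -3.16). Of 32 interferon-stimulated genes, Iigp1, an immunity-related GTPase, was higher (-0.19 and 1.47), while Ifit3 (1.39 and 1.71) and Oas2 (-0.49 and -0.69) were not past 2-fold. The Notch (20 measured) and BMP and TGF-beta (29 measured) lists had 0 members past 2-fold.

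Ribosomal protein genes lay mostly below 0. Of 32 ribosomal protein genes 29 were below 0, with a median of -0.19, but under other processing this median ran from -0.19 to -0.02. Cell cycle genes had a median of -0.04 over 34 genes and 0 past 2-fold, and Mki67, the proliferation marker, was at 4.84 in both. Of 26 glycolysis and hypoxia genes 23 were below 0, with a median of -0.09. Rhox5, an X-linked homeobox gene high in all 3 arrays of this lineage, was at 8.07 and 7.83, with 7.13 in NPC.

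No shift of a whole chromosome was seen. The medians of 20 chromosomes ran from -0.05 (chromosome 13) to 0.03 (chromosome 1), and those of windows of 50 neighbouring genes from -0.16 to 0.15. Among 14141 placed genes, neighbours that were both past 2-fold in 1 direction formed 9 pairs in iHPC-10F and 6 in iHPC-9F. Of all genes, 1.57% and 1.58% were past 2-fold in these directions. The number of pairs to be found with no link between neighbours was not tested. Pairs higher in iHPC-10F included Ryr3 with Tmco5b, Agr3 with Agr2, and Slc27a2, a very long chain fatty acid transporter (1.57), with Hdc. They also included A2m with Mug1 and Mug1 with Mug2, whose probes may not separate them.

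The NPC array served as reference for both sets. Over all 17548 genes, NPC lay nearer to iHPC-10F in 9948 (56.7%). Among genes at least 2-fold higher in iHPC-9F, NPC lay nearer to iHPC-10F in 237 of 278 (85.3%), and the median distance to NPC was 0.40 from iHPC-10F and 1.60 from iHPC-9F. Among genes higher in iHPC-10F, NPC lay nearer to iHPC-10F in 84 of 276 (30.4%), and the median distance to NPC was 2.999 from iHPC-10F and 1.28 from iHPC-9F. Genes chosen for being high on 1 array tend to have the other array nearer to a further array, and 180 of the 278 and 119 of the 276 were well above background on both, so these shares are fixed in part by the choice and are given as a description. Examples from the first set are Tex45 (-2.34 in iHPC-9F, -4.83 in iHPC-10F and -5.00 in NPC), the monocarboxylate transporter gene Slc16a8 (-1.72, -4.19 and -4.51) and the protamine gene Prm2 (-2.83, -4.95 and -4.66). Each was higher on the iHPC-9F array than on the other two. With normexp the differences were -1.17 for Tex45, -1.46 for Slc16a8 and -0.97 for Prm2. Of this set 37.8% had no RefSeq name, against 19.4% of all genes. NPC shared a slide with iHPC-10F and not with iHPC-9F, and the part of the slide in these counts was not tested.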

How the data were processed

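RNA of 5 cultures was measured on 1-colour Agilent whole mouse genome arrays. The authors deposited processed intensities, which were made with Feature Extraction 10.7.3.1 of Agilent, with background subtraction and spatial detrending switched on, per the file headers; no normalization between arrays is recorded. The table of processed values deposited with the series held the same intensities. Here the log2 intensity minus the 75th percentile of each array was used. Control and outlier spots were left out, spots of a probe were averaged, and for each gene the probe brightest on average over both induced cultures was taken. Probes were named through RefSeq GRCm38.p6 by accession (22951), symbol (6659) or older symbol (3109), and 8455 kept the name in the file. Named genes were the 12 largest differences in each direction shared by at least 2 probes, the 10 largest measured differences, the 6 largest bounds, and list members past 2-fold or among the 3 largest of a list. A few genes that these rules select are not reported here by name. Genes with mean levels above 0, those highest in NPC, and some list members were named after their values were seen. The genes, lists and comparisons were chosen with earlier results of these data known. Summaries were tested on simulated data with no differences placed in the dimmest genes. The simulated spread was smaller than that of dim genes (SD 0.50 between levels of -4 and -2). The simulation thus does not cover the dim end, where most of the genes that differed lay. Python 3.11.15, R 4.3.3, limma 3.58.1 (normexp, offset 50) and matplotlib 3.10.9 were used. The number of arrays limits the precision.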

Additional observations from a re-analysis of the deposited data

How the results depend on the processing

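The counts at 2-fold were 276 and 278 (higher in iHPC-10F and in iHPC-9F). They became 58 and 76 with normexp, 119 and 180 among genes well above background on both arrays, and 706 and 645 without a filter on dim probes. With measured values in place of bounds, 627 genes were higher in iHPC-9F (and 331 in iHPC-10F). Median centring, quantile normalization, another percentile, loess and the median over probes kept both counts within 1.5 times. With normexp the share of genes with NPC nearer to iHPC-10F was 17.2% for those higher in iHPC-10F and 94.7% for those higher in iHPC-9F. None of the 54 named genes with the largest differences or bounds changed sign, but 84 of 474 values moved by more than the median SD between probes (0.11), 49 of them with normexp; Vps13a was -0.16 as the median over probes and Ryr3 0.80. Of 459 list medians 21 moved by more than that, and 0 of 180 chromosome medians did. No paired analysis was possible because each induced culture is a single array, and no fit with the slide as a block could be made for the same reason. Dim signals limit most of the differences.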
